A study of Mus musculus with 6 samples.

Results

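Adra2a and Adrb1 encode an alpha-2 and a beta-1 adrenergic receptor, 2 of the 9 adrenergic receptor genes among the 31053 genes measured in living leukocytes of mouse brain. Both were chosen by symbol because earlier looks at these libraries had shown Adra2a high in part of the microglia 3 h after a stroke and Adrb1 present throughout. Their levels by cell class, time and genotype are therefore given as a description, with no test. Among 47077 cells, 758 held at least 1 unique molecular identifier (UMI, 1 captured transcript) of Adra2a and 19052 held at least 1 of Adrb1. The samples compare brain leukocytes early after a transient stroke between mice with and without Cre-mediated targeting of the inhibitory receptor CD300a in myeloid cells. Blood flow through the middle cerebral artery was blocked for 60 min with a filament and then restored, and viable CD45-positive cells were sorted from Percoll-separated homogenates 1 h or 3 h later, or from naive mice. Adrenergic signalling was not varied by the design.

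All mice were C57BL/6 and carried loxP-flanked alleles of Cd300a. Those called fl/fl (Cd300a-fl/fl) carried nothing else that is named, and those called Lyz2-cre (Cd300a-fl/fl Lyz2-cre) also carried Cre recombinase at the lysozyme locus Lyz2, which is active in myeloid cells. Each of the 6 libraries, 1 per genotype and time, was a pool of 3 brains, so no group has a second library and intervals cover counting error only. Operated mice lay on a heater set to 40 °C during the occlusion and no sham operation is among the samples, so operation, warming and ischemia cannot be told apart. The sources used here give no age or sex, and say that the right artery was blocked but not which part of the brain was taken. Nor can 1 mouse of a pool that supplied most of a signal be told apart from 3 mice that supplied it alike. In a summed library, fewer cells with a transcript and less transcript per cell cannot be told apart either, which is why counts per cell are given as well.

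Adrenergic receptors are the cell surface receptors for noradrenaline and adrenaline. Beta receptors couple to the stimulatory G protein, which activates adenylyl cyclase and raises cyclic AMP, and alpha-2 receptors couple to inhibitory G proteins, which lower it. Microglia are the resident macrophages of the brain, and noradrenaline released by neurons is known to act on them. A microglial response to cyclic AMP runs through protein kinase A and the transcription factor CREB, whose binding site is the cyclic AMP response element.

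Adra2a (ENSMUSG00000033717) lies on chr19:54044151-54048982 and Adrb1 (ENSMUSG00000035283) on chr19:56722199-56733113, both on the plus strand of GRCm38. Each has 2 annotated transcripts and neither overlaps another annotated gene, so their reads have no overlapping partner to be confused with. The core of the cyclic AMP response element, TGACG, occurred once in the RefSeq promoter window of each gene (build GRCm38.p6, searched on both strands). The windows are shown because they hold the motif of the pathway that both receptors act on, with its letters in capitals and the plus strand written 5′ to 3′.
Adra2a, chr19:54045178-54045207: ccacgtgggggcTGACGccggctgctcggc
Adrb1, chr19:56722015-56722044: gctgcgggagccTGACGcgcggccccgggg
The core began at position -69 from the RefSeq start of Adra2a and at -90 from that of Adrb1. The Adra2a window falls within the bounds of the annotated gene, and the Adrb1 window falls upstream of the annotated gene. Of 32841 promoter windows of the same length, 20.8% held this core. The full element TGACGTCA was in neither window and in 1.79% of all. The heat shock element core GAANNTTC was in neither and in 7.86% of all, the AP-1 site TGANTCA in neither and in 7.81%, and the glucocorticoid receptor motif AGAACA in neither and in 18.98%. A loose NF-kB motif matched at 2 overlapping positions in the Adra2a window and 1 in the Adrb1 window, against 50.8% of all windows. These are matches of letters only.

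Depth and identity were looked at over all libraries first. Totals ran from 35479437 to 48478866 UMIs a library, with 3902 to 5225 UMIs in the median cell. Of 50332 distinct barcodes that passed the filter, 301 occurred in more than 1 library. Microglia-like cells numbered 37289, between 4751 and 7339 per library, and all 10 microglia markers were seen in each of their 10 clusters. Cd300a, the targeted gene, was at 172, 254 and 143 CPM (UMIs per 1000000 UMIs of the class) in fl/fl neutrophil-like cells (naive, 1 h, 3 h) and at 16.1, 12.4 and 16.4 CPM for Lyz2-cre. In microglia-like cells it was at 172, 211 and 206 CPM against 137, 171 and 163 CPM, so the libraries labelled Lyz2-cre held most of the Cd300a level there. A UMI at the 3′ end does not show whether an exon was deleted. Lyz2, which the Cre insertion interrupts, was at 196 to 232 CPM in the fl/fl microglia-like cells and 0.427 to 0.655 CPM in those of Lyz2-cre.

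Adrb1 had 38741 UMIs in 19052 cells and Adra2a 4239 UMIs in 758 cells. Microglia-like cells held 97.5% of the Adrb1 UMIs and 99.5% of those of Adra2a. Over all libraries, the alpha-1 receptor genes Adra1a, Adra1b and Adra1d had 22, 5 and 2 UMIs. The alpha-2 genes Adra2b and Adra2c had 1 and 5, and Adrb3 had 0. At this depth those 6 genes allow no comparison.

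Adra2a was low in microglia-like cells as a whole until 3 h, when it was higher in both genotypes and by far the highest in fl/fl. Its UMIs numbered 40, 123 and 3437 in fl/fl (naive, 1 h, 3 h) and 78, 57 and 483 in the Lyz2-cre libraries. As levels these are 1.43 (95% exact Poisson interval 1.02 to 1.95), 4.04 (3.36 to 4.82) and 165 CPM (160 to 171) in fl/fl, and 2.56 (2.02 to 3.20), 1.96 (1.49 to 2.55) and 16.4 CPM (15.0 to 17.9) in Lyz2-cre. The fl/fl 3 h library stood far above the other 5 and the Lyz2-cre 3 h library was next, with fl/fl 1 h after it. The intervals of the remaining 3 overlapped from one neighbour in this order to the next. The 3 h level was 115 times the naive level in fl/fl (exact interval of the ratio 84.6 to 162) and 6.40 times in Lyz2-cre (5.03 to 8.24). At 3 h the fl/fl level was 10.1 times the Lyz2-cre level (9.16 to 11.1), at 1 h 2.06 times (1.49 to 2.87), and in naive brain 0.559 times (0.372 to 0.828). With microglia taken by markers on single cells, naive levels were 2.70 CPM for fl/fl (0.877 to 6.30) and 1.55 CPM for Lyz2-cre (0.188 to 5.60). These rest on 5 and 2 UMIs and overlap, so the naive order cannot be read in that setting.

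The share of microglia-like cells with an Adra2a UMI followed the same order at 3 h. It was 0.667%, 0.973% and 8.29% in fl/fl (naive, 1 h, 3 h) and 1.01%, 0.696% and 1.84% in Lyz2-cre. The median depth of these cells differed little, from 3905 to 5197 UMIs. After each cell was thinned to 2000 UMIs the shares were 0.185%, 0.522% and 7.22% in fl/fl against 0.465%, 0.422% and 1.41% in Lyz2-cre, with 123 to 616 shallower cells left out per library. Shares in other classes are given for comparison, since free RNA can reach any class and was not estimated. T-cell-like and B-cell-like cells held no Adra2a UMI in any library. For 0 of 144 fl/fl T-cell-like cells at 3 h, a limit of 3 counts allows up to 2.08% and the upper Clopper-Pearson bound is 2.53%. Neutrophil-like cells at 3 h had 3 and 2 UMIs, in 0.278% of 1079 fl/fl cells and 0.198% of 1011 Lyz2-cre cells with median depths of 2913 and 2569 UMIs (0.207% and 0.119% after thinning). The thinned microglia-like share of fl/fl naive was below the first of these, the other naive and 1 h shares were above it by a fraction of a percentage point, and both 3 h shares were far above it. In the naive and 1 h libraries neutrophil-like cells held no Adra2a UMI, and the 0 of 950 in Lyz2-cre 1 h, the largest of these 4 groups, allows a share of up to 0.316% by the limit of 3 counts and 0.388% by the Clopper-Pearson bound. Monocyte-like cells at 3 h had 0 UMIs in 437 fl/fl cells and 3 in 733 Lyz2-cre cells.

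**Figure D1:**
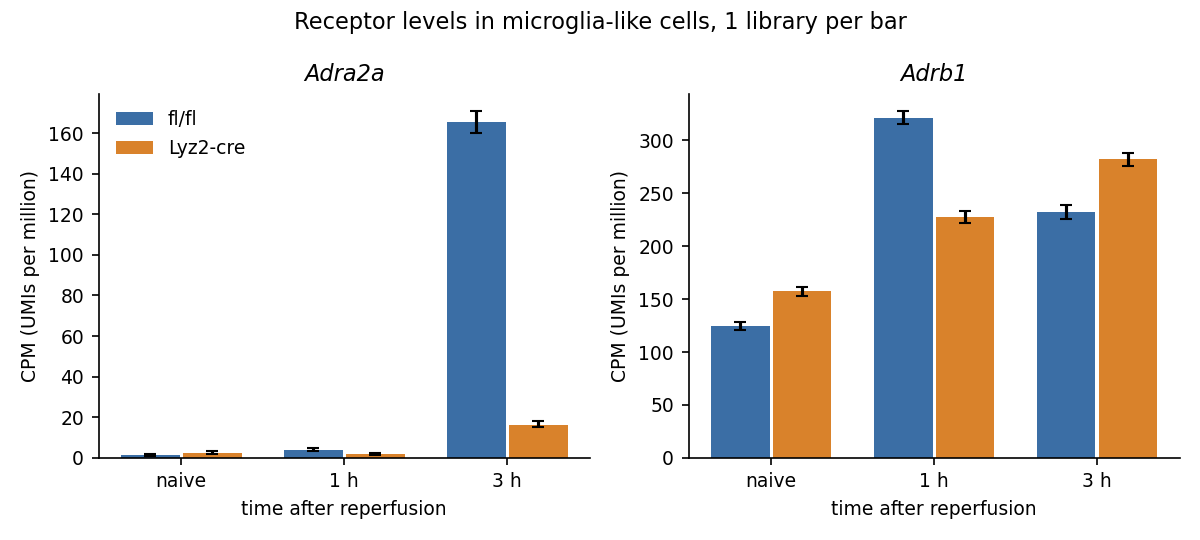
Level in CPM of Adra2a and Adrb1 in microglia-like cells of each library, by time and genotype, with 95% exact Poisson intervals for counting error and 1 library per bar. Adra2a is at 165 CPM in the fl/fl 3 h library and at 16.4 CPM or less in the others, while Adrb1 is highest in fl/fl 1 h and lowest in fl/fl naive.

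Adra2a was concentrated in few cells. In the fl/fl 3 h library 394 of 4751 microglia-like cells held it, of which 84 had 1 UMI, 96 had 2 to 4, 90 had 5 to 9 and 124 had 10 or more. These 124 cells held 71.7% of all Adra2a UMIs there, and the highest cell had 63. In the Lyz2-cre 3 h library 135 of 7339 cells held it, of which 57 had 1 UMI, 47 had 2 to 4, 17 had 5 to 9 and 14 had 10 or more, with a highest cell of 25. These libraries thus differed both in how many cells had the transcript and in how much a cell held. The mean was 8.72 UMIs per positive cell in fl/fl and 3.58 for Lyz2-cre. Positive cells were not deeper than the rest, at a median of 3896 against 4328 UMIs in fl/fl and 3350 against 3946.5 in Lyz2-cre. The variance over the mean, which is near 1 for evenly spread counts, was 18.8 and 8.37 (9.97 and 5.56 after thinning). The highest naive cells had 2 and 5 UMIs and the highest 1 h cells 12 and 3.

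Adrb1 was spread over many cells with few UMIs each. Its variance over the mean ran from 1.73 to 3.07 over the 6 libraries, and 1, 20 and 20 cells held 10 or more in fl/fl against 3, 5 and 53 in Lyz2-cre. The plot of UMIs per cell shows both receptors over the same classes of count, which widen towards higher counts.

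**Figure D2:**
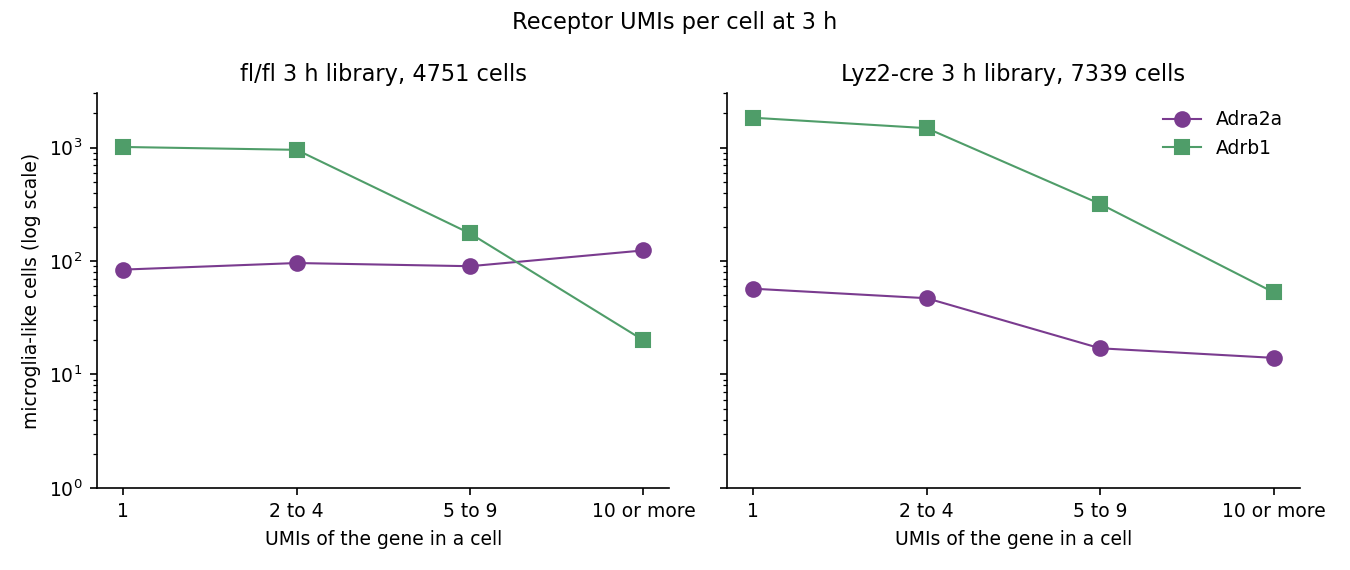
Number of microglia-like cells (log scale) that held 1, 2 to 4, 5 to 9, or 10 or more UMIs of Adra2a or Adrb1 in each 3 h library. In fl/fl 124 cells held 10 or more Adra2a UMIs against 20 for Adrb1, and in Lyz2-cre the numbers were 14 and 53.

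The cells that held Adra2a at 3 h fell mostly into 1 of the 10 microglia-like clusters. This cluster, number 7, was led by the inducible heat shock protein genes Hspa1a, Hspb1 and Hspa1b, by Gdf15, a stress-induced secreted factor, and by Bag3, a chaperone partner. All receptor genes were left out of the genes used to cluster, and Adra2a was among its top 10 genes. It had no cell in the naive libraries, 420 and 57 cells in fl/fl and Lyz2-cre at 1 h, and 1148 and 1010 at 3 h, which is 24.2% and 13.8% of the microglia-like cells of that time. None of the microglia markers was among its top 10 genes, although all 10 were detected in it. At 3 h cluster 7 held 92.3% of the fl/fl Adra2a UMIs and 83.6% of those in Lyz2-cre, and 115 of the 124 and 12 of the 14 cells with 10 or more.

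Within cluster 7 the fl/fl and Lyz2-cre 3 h libraries still differed. The Adra2a level at 3 h was 680 CPM (656 to 704) in fl/fl and 110 CPM (99.1 to 121) for Lyz2-cre, a ratio of 6.21 (5.59 to 6.90). In fl/fl 28.5% of the cells of the cluster had a UMI (25.4% after thinning) and in Lyz2-cre 9.41% (7.56%). Most cells of the cluster held none. Against all other clusters together, the level in cluster 7 was 41.4 times as high in fl/fl (36.5 to 47.1) and 35.7 times in Lyz2-cre (28.0 to 46.1), so the contrast between clusters was of like size in both. At 1 h the level in cluster 7 was already 41.1 CPM in fl/fl, with 6.90% of 420 cells positive, and 1 UMI was found in the 57 Lyz2-cre cells.

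Outside cluster 7, the fl/fl 3 h library had the higher Adra2a level in each of the 5 other clusters with at least 50 cells in both libraries. Cluster 5, led by the chemokine gene Ccl3, the cytokine gene Il1a and Rcan1, was at 14.1 and 1.44 CPM in fl/fl and Lyz2-cre. Cluster 6, led by Sox4, was at 56.8 and 7.19 CPM, and the small cluster 1 at 148 CPM in 85 cells against 0 UMIs in 132. Cluster 2, where the immunoglobulin genes Igha and Iglc1 stood among microglia markers as leading genes, was at 5.53 against 3.50 CPM, and cluster 8 at 1.504 against 0.714 CPM, with overlapping intervals. Cluster 8, led by the glutamate transporter gene Slc1a3 and by Tmem119, was the lowest of these for Adra2a in fl/fl and the highest for Adrb1, in each case with an interval that overlapped that of the next cluster.

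**Figure D3:**
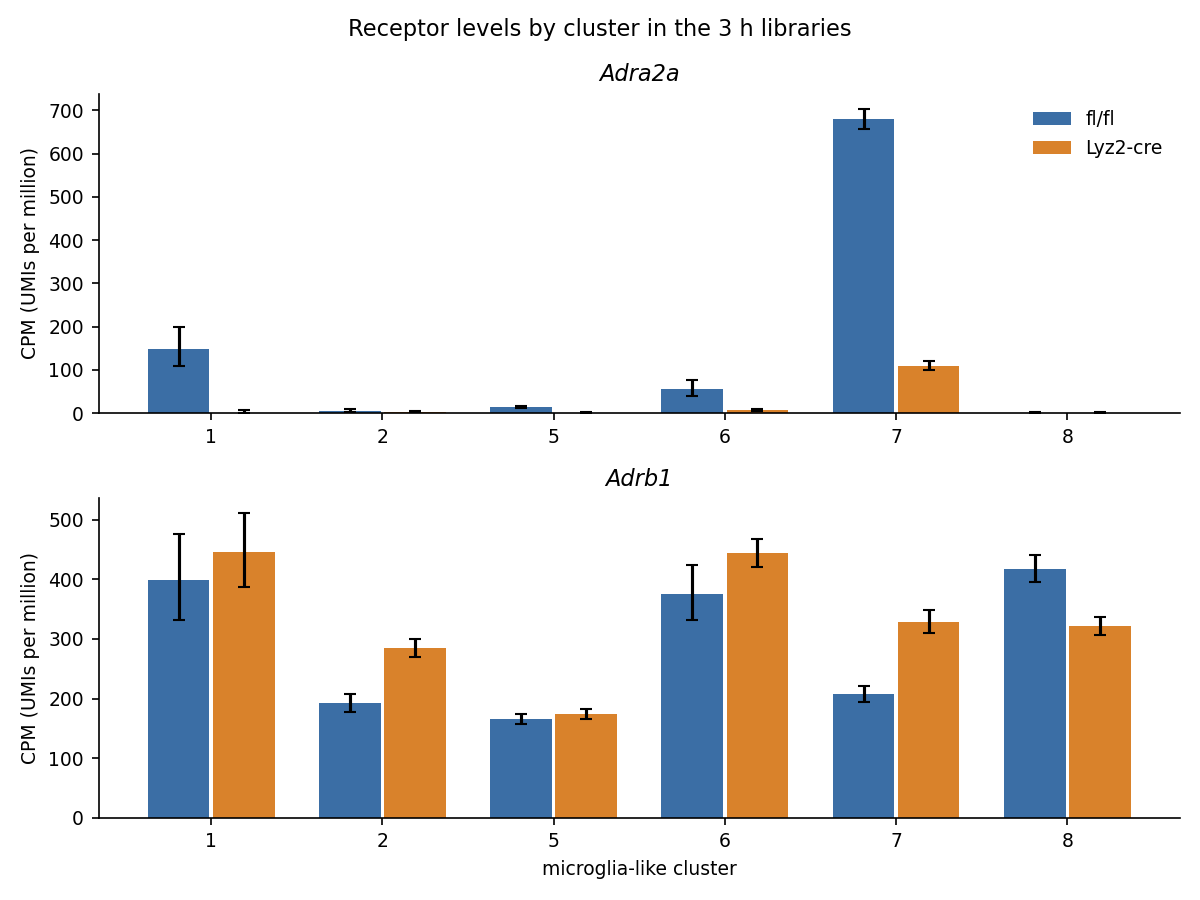
Level in CPM of Adra2a and Adrb1 in the 6 microglia-like clusters with at least 50 cells in both 3 h libraries, by genotype, with 95% exact Poisson intervals. Adra2a stands at 680 and 110 CPM in cluster 7, whereas Adrb1 is lowest in cluster 5, at 166 and 174 CPM.

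To see how Adra2a followed the heat shock genes cell by cell, the thinned 3 h cells of each library were ordered by the summed UMIs of 14 chaperone genes and divided into 10 bins of equal size, a description added after the values were seen. In fl/fl the share of cells with Adra2a stayed between 0.227% and 2.05% in bins 1 to 7 and was 11.4%, 25.5% and 29.3% in bins 8, 9 and 10. For Lyz2-cre it was at most 0.594% in bins 1 to 8, then 2.83% and 9.23%. Cells with the most chaperone transcripts thus held Adra2a most often in both genotypes.

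Chaperone levels were higher in fl/fl, with Hspa1a at 7770 against 4086 CPM over all microglia-like cells at 3 h. At comparable chaperone counts the share of Adra2a-positive cells also differed between the single fl/fl and Lyz2-cre libraries, with intervals for counting error only. The part of chaperone levels in the difference between genotypes was not tested. In bin 9 of fl/fl, at a median of 132 chaperone UMIs per cell, 25.5% of cells were positive (21.4 to 29.8, Clopper-Pearson), and in bin 10 of Lyz2-cre, at 172.5, 9.23% were (7.15 to 11.7). Adrb1 showed no such climb, with 35.8% of fl/fl cells positive in bin 1, 18.0% in bin 8 and 29.1% in bin 10, and 31.3% to 40.6% for Lyz2-cre.

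**Figure D4:**
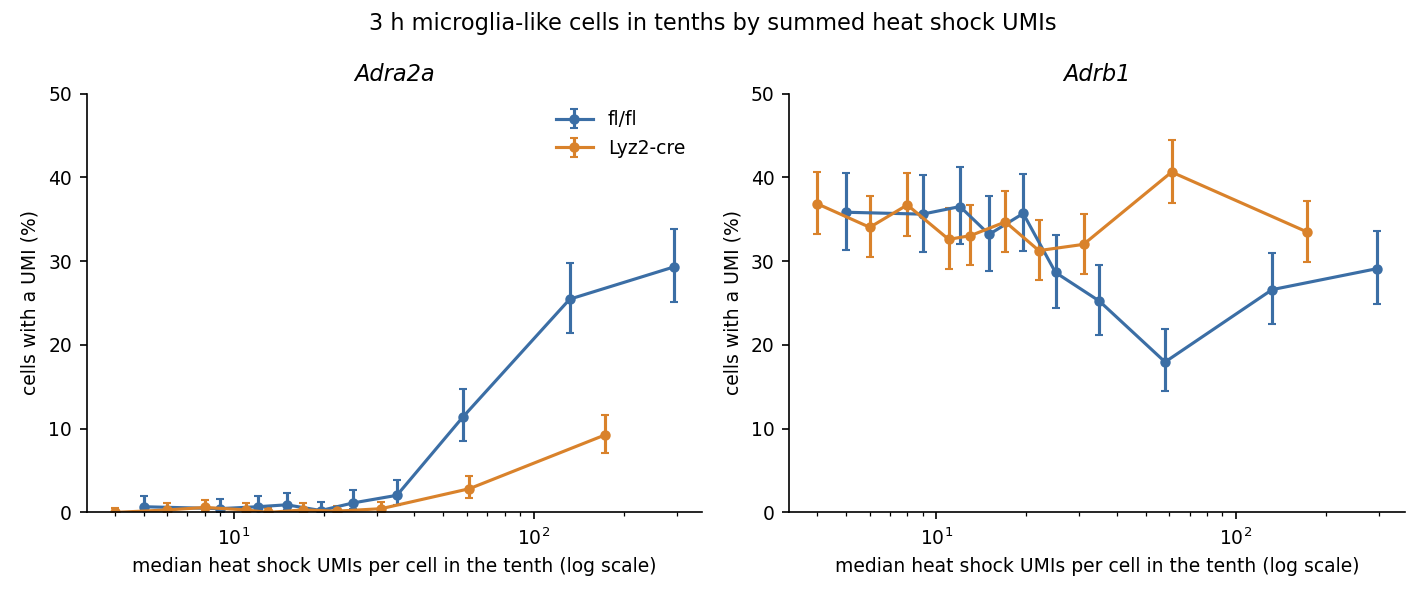
Share of 3 h microglia-like cells with an Adra2a or Adrb1 UMI, thinned to 2000 UMIs per cell, against the median chaperone UMIs per cell (log scale) in 10 equal bins of the cells, with 95% Clopper-Pearson intervals. Adra2a climbs to 29.3% in the last fl/fl bin and 9.23% in the last Lyz2-cre bin, and Adrb1 stays between 18.0% and 40.6%.

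Genes that went with Adra2a were tested by summing thinned cells with and without an Adra2a UMI in each library that had at least 30 positive cells. These were the fl/fl 1 h library with 35, the fl/fl 3 h library with 318 and the Lyz2-cre 3 h library with 95 positive cells. edgeR's quasi-likelihood test with the library as a block called 554 of 10712 genes (5.17%) after Benjamini-Hochberg adjustment at 0.05, of which 397 (3.71%) were higher and 157 (1.47%) lower beside Adra2a. The count rests in large part on the 3 h libraries, with 152 genes called without the fl/fl 3 h library and 283 without the Lyz2-cre 3 h library. Within cluster 7, with library and cluster together as the block, only 12 genes were called, and 342 had an unadjusted p under 0.05. With cells thinned to 3000 UMIs, where 5 libraries had at least 30 positive cells, 399 genes were called (300 higher and 99 lower), and 291 of the 554 stayed called in the same direction. Of the positive cells at 3 h, 83.0% in fl/fl and 70.4% for Lyz2-cre lay in cluster 7, so the fit across libraries largely sets cluster 7 against other microglia-like cells.

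Heat shock chaperones, which refold damaged proteins, were prominent among the genes higher beside Adra2a. Of 14 tested, 11 were higher and none lower, where 3.71% and 1.47% of all genes were called. Their median log2 fold change was 2.06 against -0.11 over all genes. At 3000 UMIs 8 of the 11 stayed called. Hspa1b, at 22047 CPM in positive and 4728 CPM in negative fl/fl 3 h cells, was 2.84 ± 0.19 higher on the log2 scale (SE, edgeR adjusted p = 2.72e-47), and within cluster 7 its difference was 0.40 ± 0.13 (adjusted p = 0.301). Hspa1a was 2.75 ± 0.19 higher across libraries and 0.25 ± 0.13 within the cluster (edgeR adjusted p = 0.998 there). At 3000 UMIs Hspa1b was 2.42 higher (edgeR adjusted p = 0.00316), while Hspa1a at 2.17 and Hsp90aa1 at 1.67 did not pass (adjusted p = 0.243 and 0.376). Hsph1, Hsp90aa1 and Hspd1 were 2.53, 2.46 and 2.17 higher across libraries and did not pass within the cluster. Hmox1, the heme-degrading enzyme of the oxidant response, was 2.21 higher across libraries, and AC160336.1, a gene without an assigned name, 2.11.

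A shorter set passed both comparisons. Bag3 was 2.75 ± 0.19 higher across libraries and 0.66 ± 0.16 within cluster 7 (edgeR adjusted p = 0.0261 within). Nr4a2, an orphan nuclear receptor of the early response, was 2.84 ± 0.29 and 1.10 ± 0.24 higher (adjusted p = 0.00419 within), and Atf3, a stress-induced transcription factor, 2.25 ± 0.18 and 0.65 ± 0.14 (adjusted p = 0.0041 within). Across libraries at 3000 UMIs the call of Atf3 was lost (1.45, edgeR adjusted p = 0.366). By cells of cluster 7 in Lyz2-cre 3 h, Nr4a2 was in 5.03%, 4.55% and 5.88% of those with 0, 1 to 4 and 5 to 9 Adra2a UMIs. The higher groups rest on 3 of 66 and 1 of 17 cells. Bag3 was in 36.5%, 36.4% and 41.2% there. In fl/fl 3 h the same shares were 11.0%, 16.7% and 17.4% for Nr4a2 and 53.6%, 58.7% and 62.8% for Bag3. In the 115 fl/fl 3 h cells with 10 or more Adra2a UMIs they were 20.9% for Nr4a2 and 61.7% for Bag3. The early response gene Egr3, the phosphatase gene Dusp5, the phosphohydrolase gene Nudt4 and the transcription factor gene Sox4 also passed in both, at 0.92, 1.23, 1.18 and 0.59 within the cluster. Irak1, a kinase of interleukin-1 receptor signalling, passed within the cluster (1.12 ± 0.23) and not across libraries, where it was at 197 against 75.2 CPM in fl/fl 3 h and lower beside Adra2a in Lyz2-cre 3 h. AC130815.2 passed in both but was high in the Lyz2-cre 3 h positive cells alone, at 195 CPM against 8.15, and at 7.86 against 3.67 CPM in fl/fl 3 h. At 3000 UMIs it did not pass (3.09, edgeR adjusted p = 0.114).

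The nearest tested gene to Adra2a was among those that passed. Shoc2, which encodes a scaffold of the Ras pathway and overlaps 3 other annotated genes, lies on chr19:53944306-54033133 and ends 11018 bases before the start of Adra2a. It was at 80.2 CPM in positive and 27.4 CPM in negative fl/fl 3 h cells, and at 36.8 and 25.8 CPM for Lyz2-cre 3 h. In the 35 positive cells of the fl/fl 1 h library it was at 0, against 19.1 CPM in negative cells. Its difference was 1.34 ± 0.31 across libraries (edgeR adjusted p = 0.000705) and 1.55 ± 0.35 within cluster 7 (adjusted p = 0.0103). Within cluster 7 the rise was seen in fl/fl 3 h, where Shoc2 was at 22.6 CPM in cells without Adra2a. It was at 63.2, 70.6 and 88.8 CPM with 1 to 4, 5 to 9 and 10 or more Adra2a UMIs. In Lyz2-cre 3 h Shoc2 was at 19.5, 8.57 and 34.1 CPM with 0, 1 to 4 and 5 to 9. Those last groups held 2 Shoc2 UMIs each. Across libraries at 3000 UMIs it did not pass (0.82, edgeR adjusted p = 0.0706). Other tested neighbours within 250 kb of Adra2a did not pass, with Pdcd4 at 0.66 ± 0.27 (edgeR adjusted p = 0.167) and Bbip1 at -0.32 ± 0.36 (adjusted p = 0.731). Neighbours were looked up after the values were seen, and whether some UMIs assigned to one gene come from transcripts of the other was not tested.

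Chemokine genes went both ways beside Adra2a. Of 11 tested, 4 were higher and 3 lower, with a median of -0.46, where 3.71% and 1.47% of all genes were called. The neutrophil and interferon-linked chemokine genes Cxcl2 and Cxcl10 differed by -1.83 ± 0.30 and -2.21 ± 0.40 across libraries and by -2.68 ± 0.27 and -2.71 ± 0.37 within cluster 7 (edgeR adjusted p = 1.29e-18 and 7.93e-10 within). Ccl12 was also lower (-1.51 ± 0.20), while Ccl2, Ccl3, Ccl4 and Ccl7 were higher by 1.06, 0.60, 0.85 and 1.69, of which Ccl7 differed in direction between libraries and none of these 5 passed within the cluster. At 3000 UMIs the calls of Ccl3 and Ccl4 were lost (0.10 and 0.14, edgeR adjusted p = 0.843 and 0.900). In fl/fl 3 h cells of cluster 7, Cxcl10 stood at 136, 40.8, 16.3 and 4.13 CPM in cells with 0, 1 to 4, 5 to 9 and 10 or more Adra2a UMIs. The share of cells with a Cxcl10 UMI did not follow this order, at 5.48%, 3.17%, 6.98% and 1.74%, and the last value rests on 2 of 115 cells. The other genes among the 10 most lowered were Hist1h1e, a linker histone gene, at -3.58 ± 0.52, Cd300lf, a relative of Cd300a, at -1.79 ± 0.33, and Rbm4b, Trappc1, Snx1, Gm37494, Zfp398 and Dnajc2 at -1.95 to -1.54, of which none passed within the cluster. At 3000 UMIs Trappc1 (-0.65), Snx1 (-0.32), Gm37494 (-0.61), Zfp398 (-0.86) and Dnajc2 (-0.74) did not pass (edgeR adjusted p = 0.177, 0.578, 0.240, 0.0992 and 0.0546).

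**Figure D5:**
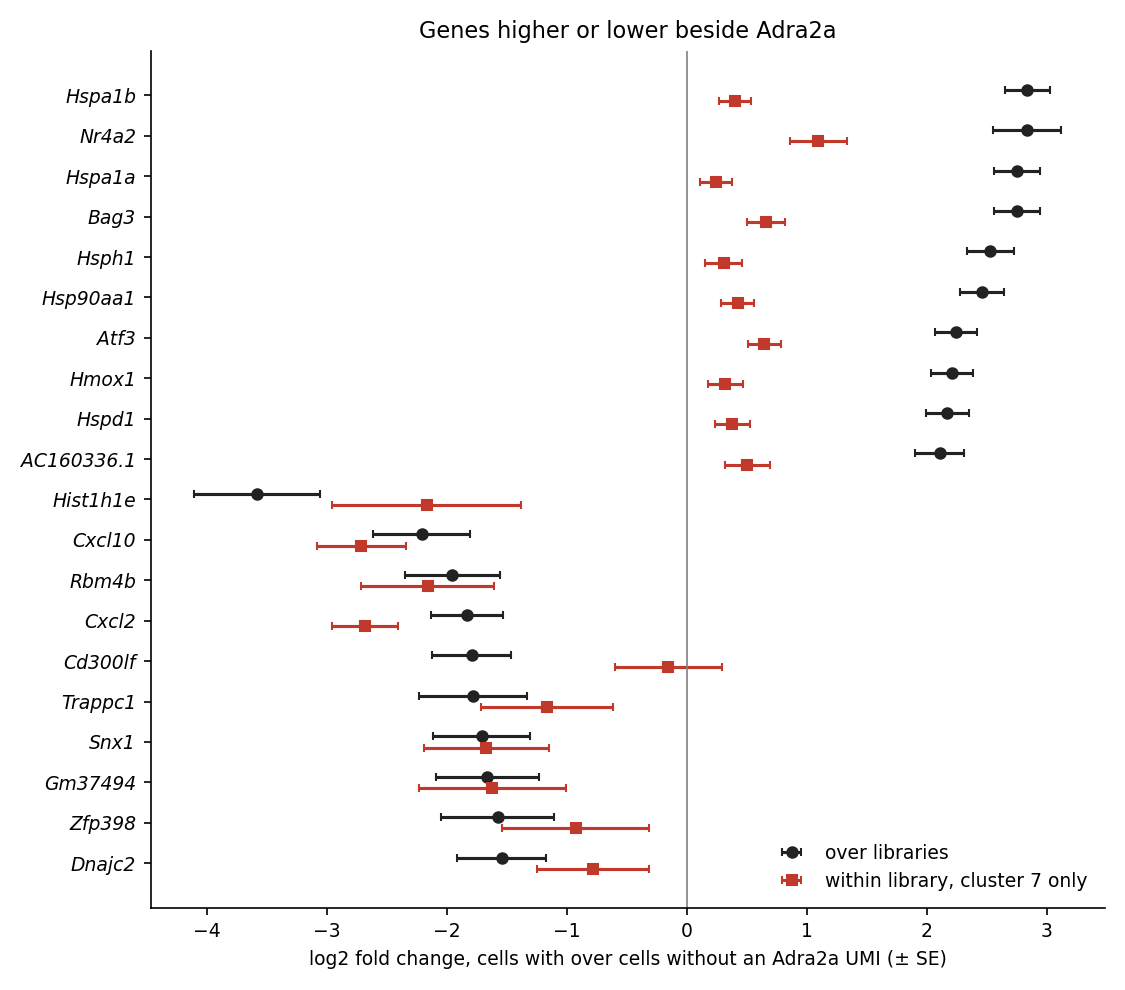
Log2 fold change (± SE) between microglia-like cells with and without an Adra2a UMI for the 10 genes most raised and the 10 most lowered over libraries, with the same genes tested within library in cluster 7 alone. Hspa1b falls from 2.84 to 0.40 within the cluster, while Cxcl10 stays low at -2.21 and -2.71.

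Early response genes went both ways. Of 18 immediate early genes, 8 were higher and 3 lower beside Adra2a (median 0.43), where 5.17% of all genes were called, and 6 of these 11 stayed called at 3000 UMIs. Jun was 1.03 ± 0.17 higher, and Fos, which pairs with Jun in AP-1, differed by -0.88 ± 0.18 (edgeR adjusted p = 3.08e-07 and 4.33e-05). Of 13 glucocorticoid response genes, 1 was higher and 5 lower (median -0.71), with Fkbp5, a co-chaperone induced by glucocorticoids, at -1.15 ± 0.22. None of 15 homeostatic microglia genes passed edgeR's test in either direction (median -0.08), and 2 had an unadjusted p under 0.05. Of 14 cytokine and NF-kB genes 2 were higher and 1 lower, of 14 disease-associated microglia genes none and 2, of 17 hypoxia and glycolysis genes 1 and 1, and of 12 interferon response genes 1 and none. The summed level of the 10 microglia markers was 16679 CPM in positive and 20810 CPM in negative fl/fl 3 h cells, and 19511 and 23720 CPM for Lyz2-cre.

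Of the receptor's own pathway, edgeR called 0 to 5 genes of each list, where 5.17% of all genes were called. Of 14 receptor kinases, arrestins and RGS proteins 4 were higher and 1 lower, of 14 CREB family and cyclic AMP-induced genes 2 and 3, of 10 other receptors coupled to cyclic AMP 2 and none, of 10 phosphodiesterases 1 and none, of 11 G protein subunits none and 1, and of 3 adenylyl cyclases none. Gpr183, an oxysterol receptor coupled to inhibitory G proteins, was 1.00 ± 0.17 higher beside Adra2a. Rgs1 and Rgs2, which switch off G protein signals, were 0.87 ± 0.17 and 0.77 ± 0.17 higher, the phosphodiesterase gene Pde4b 0.87 ± 0.27 higher, and the arrestin gene Arrb2 differed by -0.90 ± 0.21. Creb1, which encodes CREB itself, differed by -1.30 ± 0.32. None of these 6 passed within cluster 7 (edgeR adjusted p = 0.998 for each), and at 3000 UMIs the calls of Pde4b (0.22) and Arrb2 (-0.46) were lost (edgeR adjusted p = 0.756 and 0.0565). Of 15 genes of protein kinase A and its anchors none passed edgeR's test, and 5 had an unadjusted p under 0.05.

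Other cell types were looked for among the Adra2a-positive cells. At 3 h the 318 positive fl/fl cells held no UMI of the 6 neuron markers and the 95 positive Lyz2-cre cells held 1. The 8 markers of border-associated macrophages summed to 20.4 CPM in positive and 28.2 CPM in negative fl/fl cells, with 2 of 8 at 0 in the positive cells, and to 15.8 and 44.2 CPM for Lyz2-cre. The 9 monocyte markers summed to 23.6 and 26.3 CPM in fl/fl and the 10 neutrophil markers to 291 and 295 CPM. In Lyz2-cre the monocyte markers were at 21.1 and 29.3 CPM and the neutrophil markers at 253 and 274 CPM. The 7 B-cell markers were higher beside Adra2a, at 269 CPM against 172 in fl/fl and at 295 CPM against 221 for Lyz2-cre, with 3 and 4 of the 7 at 0 in the positive cells. So were the 8 markers of conventional dendritic cells, at 299 CPM against 194 in fl/fl and at 358 CPM against 235 for Lyz2-cre. Of these 8, 3 were at 0 in the positive cells of each library. The 7 T-cell markers summed to 4 UMIs in the positive fl/fl cells and 1 in those of Lyz2-cre. The part of these sums in the differences was not tested.

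Adrb1 behaved otherwise. Its UMIs in microglia-like cells numbered 3478, 9786 and 4824 in fl/fl (naive, 1 h, 3 h) and 4787, 6608 and 8306 in Lyz2-cre. The levels were 124 (120 to 129), 321 (315 to 328) and 232 CPM (226 to 239) in fl/fl and 157 (153 to 162), 228 (222 to 233) and 282 CPM (276 to 288) in Lyz2-cre. Both operated times stood above naive in both genotypes, and fl/fl 1 h was the highest library. The fl/fl 3 h and Lyz2-cre 1 h intervals overlapped, and the other neighbours in the order did not.

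The time course of Adrb1 differed in shape between the genotypes. Its 3 h level was 1.86 times the naive level in fl/fl (1.78 to 1.95) and 1.79 times in Lyz2-cre (1.73 to 1.86), which is close. From 1 h to 3 h it was 0.722 times (0.697 to 0.747) in fl/fl and 1.24 times (1.20 to 1.28) in Lyz2-cre. The share of cells with a UMI was 38.5%, 61.7% and 45.5% in fl/fl against 46.8%, 50.2% and 50.3% in Lyz2-cre (20.7%, 41.3% and 30.4%, and 24.8%, 33.3% and 34.5%, after thinning). Neutrophil-like cells had Adrb1 in 1.02% and 1.19% of cells at 3 h (0.518% and 0.595% after thinning), and the microglia-like shares were far above these.

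The median of 8131 genes at 10 CPM or more also moved between libraries, by -0.12 on the log2 scale from naive to 3 h in fl/fl, -0.11 from naive to 1 h in Lyz2-cre, and -0.10 for fl/fl against Lyz2-cre at 3 h. Relative to it, the 3 h against naive ratios became 125 and 6.71 for Adra2a and 2.02 and 1.88 for Adrb1, in fl/fl and Lyz2-cre. The ratios from 1 h to 3 h became 0.741 and 1.19 for Adrb1. No direction changed for either gene.

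Which microglia-like clusters hold the cells differed between times, so levels by cluster are given beside these values. Naive cells were mostly in clusters 3, 4 and 10, 1 h cells in clusters 1, 2, 6 and 9, and 3 h cells in clusters 2, 5, 7 and 8. Cluster 1, led by Rcan1, the glucocorticoid-induced kinase gene Sgk1 and Sparc, held 42.5% of fl/fl and 33.9% of Lyz2-cre cells at 1 h, with Adrb1 at 460 and 311 CPM. The naive clusters were at 108 to 138 CPM in fl/fl and 132 to 180 CPM for Lyz2-cre. At 3 h Adrb1 was at 417 and 322 CPM in cluster 8 and at 166 and 174 CPM in cluster 5, in fl/fl and Lyz2-cre. Cluster 7, the cluster of Adra2a, did not stand out for Adrb1 by summed level. Its Adrb1 level was 208 and 329 CPM, or 0.870 (0.810 to 0.934) and 1.19 times (1.12 to 1.27) that of all other clusters.

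Adrb1 was also seen in other macrophages. Border-associated macrophage-like cells, which line vessels and meninges, had 67.8, 93.5 and 37.9 CPM in fl/fl (naive, 1 h, 3 h) and 76.9, 98.4 and 73.3 CPM for Lyz2-cre, with 34 to 156 cells per library. Monocyte-like cells had 31.1, 32.1 and 8.21 CPM and 52.7, 30.2 and 10.4 CPM. Natural killer cell-like cells had 10.2 to 40.7 CPM, B-cell-like cells 2.29 to 21.9 CPM and T-cell-like cells 0 to 9.57 CPM. Microglia-like cells were the highest named class for Adrb1 in each of the 6 libraries.

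Both receptors occurred in some of the same cells. Of the 394 Adra2a-positive fl/fl 3 h cells, 160 also held Adrb1, and in Lyz2-cre 3 h 65 of 135 did. Of the cells with 10 or more Adra2a UMIs, 3 of 124 in fl/fl and 0 of 14 in Lyz2-cre had 10 or more of Adrb1. Among all microglia-like cells of these 3 h libraries, 20 of 4751 and 53 of 7339 had 10 or more of Adrb1. In fl/fl the share was thus higher among the cells with many Adra2a UMIs, which rests on 3 cells. Of the 3 h cells with 10 or more Adrb1 UMIs, cluster 7 held 8 of 20 (40%) in fl/fl, with 6 in cluster 8. In Lyz2-cre it held 18 of 53 (34.0%), with 17 in cluster 6 and 11 in cluster 2. Of all microglia-like cells of these libraries, cluster 7 held 24.2% and 13.8%. Its share of the cells with many Adrb1 UMIs was thus above its share of all cells in both, on few cells.

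At equal depth, Adrb1 was in 27.4% of Adra2a-positive and 30.7% of negative fl/fl 3 h cells and in 31.6% and 34.6% of Lyz2-cre 3 h cells. The intervals of each pair overlapped. By level, Adrb1 was at 261 CPM in positive and 239 CPM in negative fl/fl cells, and at 221 and 295 CPM for Lyz2-cre, where the intervals overlapped as well. Within cluster 7 of fl/fl 3 h, Adrb1 was at 195, 267, 212 and 231 CPM in cells with 0, 1 to 4, 5 to 9 and 10 or more Adra2a UMIs, with no steady course. For Lyz2-cre it was at 335, 296, 222 and 211 CPM, where the last 2 values rest on 17 and 12 cells.

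The rest of the cyclic AMP pathway was read from a fit over all 6 libraries, with genotype and time as terms. Of 118 listed genes, 88 were abundant enough in microglia-like cells to test. From naive to 1 h edgeR called 17 higher and 20 lower, where 14.2% and 12.6% of all 12854 genes were called (26.8% in all), and from naive to 3 h 27 higher and 32 lower, where 24.4% and 23.2% were (47.6% in all). From 1 h to 3 h 23 were higher and 20 lower, where 25.2% and 22.1% were (47.3% in all). The list was thus called more often than all genes from naive to 1 h and from naive to 3 h, which describes these 88 genes without a test. The median of the list from naive to 3 h was -0.02, as it was for all genes. These counts depend on single libraries, with 36 in place of 59 called from naive to 3 h without the fl/fl naive library, 27 in place of 43 from 1 h to 3 h without Lyz2-cre 1 h, and 16 to 20 in place of 37 from naive to 1 h without any 1 of the 4 libraries compared. From naive to 1 h the balance turned with these settings, with 12 higher and 4 lower without fl/fl naive, 11 and 7 without Lyz2-cre naive, 13 and 6 without fl/fl 1 h, 14 and 6 without Lyz2-cre 1 h, and 19 and 9 by DESeq2. From 1 h to 3 h it turned to 15 higher and 17 lower by DESeq2, 22 and 23 with no filter on low counts, and 21 and 24 without Lyz2-cre 3 h.

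At the receptor's own level the G protein genes went down more than up at 3 h. Of 13 tested subunits, 3 were higher and 7 lower than in naive cells (median -0.40), where 24.4% and 23.2% of all genes were called. Gnai2 and Gnas, the abundant inhibitory and the stimulatory alpha subunit, differed by -0.47 ± 0.09 and -0.42 ± 0.08 (edgeR adjusted p = 0.00186 and 0.00267), and both calls were lost without the fl/fl naive library. Gnai3, another inhibitory subunit, was 0.66 ± 0.09 higher (adjusted p = 0.000463), and Gng10 differed by -0.84 ± 0.12. Of 6 adenylyl cyclase genes, which make cyclic AMP, 1 was lower, and the most abundant, Adcy7, did not pass (-0.11 ± 0.09, edgeR adjusted p = 0.331). Of 10 phosphodiesterases, which break cyclic AMP down, 5 were higher and 1 lower (median 0.41), led by Pde4b at 1.16 ± 0.09 (edgeR adjusted p = 1.3e-05) and Pde8b at 0.85 ± 0.13.

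Genes further down the pathway moved in both directions, where 24.4% of all genes were called higher and 23.2% lower. Of 15 genes of protein kinase A and its anchors, 6 were higher and 6 lower at 3 h than in naive cells, with the catalytic subunit gene Prkaca at -0.73 ± 0.10 and the anchor gene Akap13 at 0.49 ± 0.09, whose call was lost without the fl/fl naive library. Of 14 CREB family and cyclic AMP-induced genes, 7 were higher and 1 lower (median 0.51). The orphan nuclear receptor genes Nr4a1 and Nr4a3 were 2.98 ± 0.09 and 6.40 ± 0.28 higher (edgeR adjusted p = 4.59e-08 and 2.4e-06), and Fos, an immediate early gene, was the lower one at -1.35 ± 0.10. Fos and Jun were at 5400 and 9873 CPM in the fl/fl naive library and at 1826 and 3177 CPM at 3 h. Of 15 receptor kinase, arrestin and RGS genes, 2 were higher and 9 lower (median -0.46), with Rgs1 at 1.47 ± 0.10 and Rgs2, Rgs3 and Rgs14 at -0.95 ± 0.09, -1.04 ± 0.10 and -1.05 ± 0.21.

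Other receptors that act on cyclic AMP changed as well. Of 12 tested, 4 were higher and 6 lower at 3 h than in naive cells (median -0.61), where 24.4% and 23.2% of all genes were called. Ptger4, a stimulatory prostaglandin E2 receptor, was at 1.93, 6.34 and 44.1 CPM in fl/fl (naive, 1 h, 3 h) and at 0.854, 2.76 and 18.0 CPM for Lyz2-cre, and was 4.54 ± 0.15 higher at 3 h than in naive cells (edgeR adjusted p = 5.94e-08). Gpr183 was 1.41 ± 0.12 higher. The purine receptor gene P2ry12, the histamine receptor gene Hrh2 and the receptor gene for vasoactive intestinal peptide, Vipr1, differed by -0.93 ± 0.10, -1.36 ± 0.14 and -1.15 ± 0.19.

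Between genotypes, 3 of the 88 pathway genes differed in the same fit and all 3 were lower in Lyz2-cre, where 0.0467% of all genes were called higher in Lyz2-cre and 0.405% lower (0.451% in all). These were Ptger4 at -1.31 ± 0.11 (edgeR adjusted p = 0.00204), Nr4a1 at -0.58 ± 0.07 (adjusted p = 0.00944) and Nr4a3 at -1.28 ± 0.18 (adjusted p = 0.0288). The count was 5 when either 3 h library was left out, and 2 without any 1 of the other 4 libraries or with no doublet removal. Adra2a and Adrb1 were left out of this reading because they were chosen on these values.

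Genes whose level went with the receptors across clusters were ranked by Pearson's r of log2(CPM + 1) over 40 sums of library and cluster with at least 50 cells, as a description without a test. The sums share libraries, and 8140 genes entered. The 10 most like Adra2a were AC160336.1 at 0.84, Hsp90aa1 and the MAX partner gene Mxd1 at 0.79, Bag3 and Hspe1 at 0.78, the plasminogen activator gene Plau, Hsph1 and Atp13a3 at 0.76, Slc25a20 at 0.75 and the iron exporter gene Slc40a1 at 0.74. The 5 most like Adrb1 were others, with the PI3-kinase inhibitor gene Pik3ip1 at 0.83, the stress-induced mTOR inhibitor gene Ddit4 at 0.79, the checkpoint receptor gene Havcr2 at 0.78, and Slc43a2 and Slc1a3 at 0.76. No gene was on both lists, but lists of 10 and 5 out of 8140 genes would seldom share one in any case. The Adra2a ranking depended on the scale, since 3 of its 10 genes stayed among the first 10 by Spearman's rho.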

How the data were processed

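Single-cell RNA of sorted brain leukocytes was measured with 3′ chemistry in 6 libraries, grouped by the genotype and time in their titles. The authors deposited filtered matrices of raw counts of UMIs per gene and barcode, made with Cell Ranger 3.0.2 and build mm10, per the submitters' processing notes. The series text calls the earliest time 0 h and the titles call it naive, which was followed.

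Python 3.11.15 (scanpy 1.11.5, umap-learn 0.5.12, igraph 0.11.9, scikit-learn 1.9.0, scipy 1.17.1) and R 4.3.3 (edgeR 4.0.16, limma 3.58.1, DESeq2 1.42.0) were used. Of 51005 barcodes, 50634 passed a filter of 300 genes or more and no more than 10% mitochondrial UMIs. Scrublet's own threshold called 607 and was not used. The highest-scoring 0.8% per 1000 barcodes, 3557 in all, were removed as likely doublets, which left 47077 cells. Counts scaled to 10000 per cell, 2000 variable genes, 30 components and 15 neighbours gave Leiden clusters at resolution 1. After a first clustering had followed Lyz2, the genes Lyz1, Lyz2, Cd300a and the 9 adrenergic receptors were left out, cells that were not microglia-like were clustered again, and a group led by Cd209a and Ccl17 stayed unnamed. Names rest on at least 3 markers seen in at least 10% of cells. They are rebuilt and end in -like.

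Levels are CPM of a class or cluster, from the 3′ end and so not scaled by length, with exact Poisson intervals. Shares have Clopper-Pearson intervals, and a count of 0 is also given a limit of 3 counts. Intervals are at 95% and cover counting error only. Tests used edgeR's quasi-likelihood fit (robust, TMM, filterByExpr) on sums per library, with Benjamini-Hochberg adjustment at 0.05, and the SE is the absolute log2 fold change over the root of F. The time and genotype fit has 1 library per group, so spread between pools and departures from additivity are mixed, and 7.90 was the median of its prior degrees of freedom. In the fit of Adra2a-positive against negative cells the prior degrees of freedom were infinite, so its p-values rest on 1 common spread and only the library pairs replicate. On simulated counts with 200 changed genes, the 3 h against naive fit (12686 genes) recovered 91% at a log2 change of 1 and 100% at 2 with 8 false calls, and the positive against negative fit (10469 genes) 50% and 91% with 2. The simulation gave every gene the same spread, so it does not show how the fits behave where spread differs between genes.

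The receptors and gene lists were chosen with earlier results of these data known. Genes named are the receptors, up to 3 called genes per pathway list and direction in the 3 h against naive contrast (mean of at least 5 CPM, the most abundant where none passed), the 10 most raised and 10 most lowered genes beside Adra2a with 1 direction in every library and at least 20 CPM, up to 3 genes of each list, and the 10 and 5 most like Adra2a and Adrb1. The 12 genes within cluster 7, Shoc2 and its neighbours, and further list members were named after their values were seen. Promoter windows are RefSeq's on GRCm38.p6. Values of some genes of these lists are not reported here. Other settings tried are given in the closing section.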

Additional observations from a re-analysis of the deposited data

Results flagged for a closer look

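In 1 contrast of Adrb1 the single fl/fl library moved one way and the single Lyz2-cre library the other. The Adrb1 level in microglia-like cells at 3 h was 0.722 times that at 1 h in fl/fl and 1.24 times in Lyz2-cre. With 1 library per genotype and time, this difference between genotypes was not tested. The clusters that hold the cells also differed between 1 h and 3 h. Cluster 1, the cluster with the highest Adrb1 level in the fl/fl 1 h library, held 42.5% of fl/fl and 33.9% of Lyz2-cre microglia-like cells at 1 h, and 1.79% and 1.80% at 3 h. At 3 h cluster 7 held 24.2% and 13.8%, and within it Adrb1 was 0.633 times as high in fl/fl as in Lyz2-cre (0.581 to 0.689). Levels within clusters also differed in course between the libraries. At 1 h and 3 h, Adrb1 in cluster 1 was at 460 and 399 CPM in fl/fl and at 311 and 446 CPM in Lyz2-cre. Cluster 2 was at 193 and 193 CPM against 160 and 285 CPM, and cluster 6 at 251 and 376 CPM against 207 and 443 CPM. Cluster 7 was at 234 and 208 CPM against 251 and 329 CPM. The part of the cluster makeup in the difference was not tested.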

How the results depend on the processing

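No paired analysis was possible because, for genotype and time, the labels give no replicate numbers and each group has 1 library, so no replicate block could be fitted. Adra2a-positive and negative cells were compared within library. Of 100 values under other settings, 63 kept their side of the threshold or stayed within their limits and 37 moved. A stricter cell filter and no doublet removal each kept all 12 levels of Adra2a and Adrb1 within their intervals. A marker gate on single cells required at least 3 microglia markers and none of neutrophils, T cells or B cells. It gave Adra2a at 2.70, 3.24 and 136 CPM in fl/fl (naive, 1 h, 3 h) against 1.55, 0.780 and 14.5 CPM for Lyz2-cre. The naive levels rest on 5 and 2 UMIs with overlapping intervals, and Lyz2-cre 1 h on 1 UMI, so the naive order cannot be read. The gate gave Adrb1 at 113, 347 and 195 CPM and 149.6, 283 and 233 CPM. Thinning to 3000 UMIs moved 9 of 12 shares. Leaving out 1 library gave 16 to 50 pathway genes from naive to 1 h, 36 to 58 from naive to 3 h, 27 to 45 from 1 h to 3 h and 2 to 5 between genotypes, where DESeq2 gave 5. For genes beside Adra2a it gave 152 to 737, DESeq2 gave 265, and the fit within library and cluster 12. The cause of these moves was not tested. Of the 10 genes most like Adra2a, 6 stayed with log2(CPM + 10) and 3 with Spearman's rho, and of the 5 for Adrb1, 3 stayed with Spearman's rho. With 57 Adra2a UMIs in Lyz2-cre 1 h against 40 and 78 in the naive libraries, its interval overlapped both of theirs, and depth limits its order against them.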
